A study of Mus musculus with 86 samples.

Results

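Levels of 10 genes that mark the endothelial cells of brain vessels, or serve the blood-brain barrier that these cells form, were described in wild house mice, in the prefrontal cortex, the hypothalamus and the hippocampus. They are Cldn5, Flt1, Ly6a, Ly6c1, Itm2a, Slco1a4, Slc2a1, Mfsd2a, Abcb1a and Pecam1, which were found in the count table by their Ensembl identifiers and are 10 of its 35275 genes. All 10 passed the filter on low counts, which kept 18710 genes over the 3 regions. The animals were free-living Mus musculus domesticus of a barn population, caught in the non-breeding season, with no treatment and no engineered allele in any group. Social network size is the number of different partners that an animal met per day in the nest boxes, and animals from both ends of its distribution were taken (low gregariousness in the labels is a small network, high a large one). Among the 29 animals there were 14 females and 15 males. Each group of 1 sex and network size gave 7 libraries per region, except males with small networks, which gave 8 in prefrontal cortex and hippocampus and 7 in the hypothalamus, so that 86 libraries were read. The same animals gave all 3 regions, apart from 1 male without a hypothalamus library. The animals were of no inbred strain, and no age is given in the labels. The methods of the study give estimated mean ages by group and report no significant difference by sex or network size. Among males, the mean was lower with small than with large networks. Regions were punched from frozen slices, and no step that removes blood from the vessels is named in the methods, so each library holds the RNA of all cells of a punch. In such bulk samples, fewer cells of a type and less RNA per cell cannot be told apart.

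Brain endothelial cells line the capillaries and seal the space between them with tight junctions, so that polar molecules cross only where a transporter carries them. Signals from surrounding neural cells, pericytes and astrocytes keep this state, among them Wnt ligands acting through beta-catenin. Of the 10 genes, Cldn5 encodes the main claudin of the tight junction and Pecam1 an adhesion molecule of endothelial contacts. Flt1 encodes a receptor of vascular endothelial growth factor. Slc2a1 encodes the glucose transporter of the barrier, Mfsd2a a transporter of lysophospholipids that carry docosahexaenoic acid, Slco1a4 an organic anion transporter, and Abcb1a the efflux pump P-glycoprotein. Ly6a and Ly6c1 encode small surface proteins held by a lipid anchor, and Itm2a encodes a membrane protein that is abundant in brain endothelium.

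Ly6c1 was the member with the largest difference between animals, and it has a close neighbour in sequence. Ly6c1 lies at chr15:75044018-75048830 on the minus strand of GRCm38, and its coding sequence and that of Ly6c2 have 396 bases each in GENCODE vM21, of which 387 are identical (97.7%). Bases 1 to 120 of both reference coding sequences are shown because reads of these 2 genes can be told apart only where they differ. They hold 6 of the 9 differing bases, which are in capitals.
Ly6c1: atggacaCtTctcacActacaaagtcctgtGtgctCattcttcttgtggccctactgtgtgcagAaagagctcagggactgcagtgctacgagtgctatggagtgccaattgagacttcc
Ly6c2: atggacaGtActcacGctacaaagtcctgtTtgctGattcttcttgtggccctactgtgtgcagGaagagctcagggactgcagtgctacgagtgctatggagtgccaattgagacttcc
The other 3 differing bases lie further on. In the longest Ly6c1 transcript, 5.61% of windows of 150 bases also occurred in Ly6c2, as did 4.41% of those of Abcb1a in Abcb1b. None of the windows of this length in the other 8 genes occurred elsewhere among annotated transcripts. At 50 bases the shared portion was 36.7% for Ly6c1, 17% for Abcb1a, 10% for Ly6a, 2.73% for Slco1a4 and 0% for the rest. Values of Ly6c1, Ly6a and Abcb1a may thus be affected by how reads that fit several places were handled, which is not given in the sources used here.

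Promoter windows, 250 bases before to 50 after a transcription start in RefSeq on GRCm38.p6, were found for 8 of the 10 genes. Those of Slc2a1 and Mfsd2a are shown because the levels of these 2 genes varied together most closely across animals, that of Ly6c1 because its level differed most between animals, and that of Flt1 because it holds matches to a motif. The letters AGGAAG or their reverse complement CTTCCT, the short core that ETS factors of endothelial cells bind, are in capitals.
Slc2a1, chr4:119108495-119108794, plus strand: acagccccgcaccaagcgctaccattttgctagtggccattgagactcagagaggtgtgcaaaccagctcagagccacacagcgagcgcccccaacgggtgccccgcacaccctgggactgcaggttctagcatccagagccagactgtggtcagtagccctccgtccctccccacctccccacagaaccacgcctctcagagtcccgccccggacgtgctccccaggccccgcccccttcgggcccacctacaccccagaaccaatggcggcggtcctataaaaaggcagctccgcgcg
Mfsd2a, chr4:122961139-122961438, minus strand: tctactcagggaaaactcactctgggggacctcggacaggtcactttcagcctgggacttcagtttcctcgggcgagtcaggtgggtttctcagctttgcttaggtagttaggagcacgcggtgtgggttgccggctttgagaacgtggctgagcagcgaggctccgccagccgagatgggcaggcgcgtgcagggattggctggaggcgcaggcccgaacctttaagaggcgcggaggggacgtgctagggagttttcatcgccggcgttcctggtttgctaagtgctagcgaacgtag
Flt1, chr5:147725962-147726261, minus strand: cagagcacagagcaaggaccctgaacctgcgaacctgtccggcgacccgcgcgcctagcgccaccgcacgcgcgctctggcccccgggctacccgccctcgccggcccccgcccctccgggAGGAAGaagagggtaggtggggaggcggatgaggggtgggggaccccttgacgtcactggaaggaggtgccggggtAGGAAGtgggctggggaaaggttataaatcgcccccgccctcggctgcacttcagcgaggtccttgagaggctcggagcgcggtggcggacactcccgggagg
Ly6c1, chr15:75048788-75049087, minus strand: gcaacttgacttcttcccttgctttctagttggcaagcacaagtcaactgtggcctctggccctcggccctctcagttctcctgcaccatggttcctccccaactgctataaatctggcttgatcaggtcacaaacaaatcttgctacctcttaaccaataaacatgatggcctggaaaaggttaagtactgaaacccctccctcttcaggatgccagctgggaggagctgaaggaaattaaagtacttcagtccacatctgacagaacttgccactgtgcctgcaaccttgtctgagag
The Flt1 window held these letters at 2 places and the other 3 windows held none. On either strand, AGGAAG was in the windows of 5 genes (Abcb1a, Flt1, Itm2a, Slco1a4 and a second window of Ly6c1) and in 35.4% of all 32851 windows. The longer ETS form ACCGGAAGT was in none of the 9 windows and in 1.1% of all, the TCF/LEF letters CTTTGAT in none and in 3.73% of all, and the SOX letters AACAAT in that of Slco1a4 and in 10.7% of all. Matches of a motif could overlap each other. Such matches describe letters only.

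Total counts per library lay between 33711824 and 81865801, and the 10 genes had between 13 and 10530 reads per library, which makes counting error small for all but the lowest Ly6c1 values. Levels are given as CPM, the read count scaled to the size of the library, with library sizes adjusted within a region by edgeR's TMM method. The labelled tissue was checked on summed marker levels. Neuron markers summed to between 3008 and 7201 CPM, against 315 to 558 CPM for the 10 endothelial genes, 197 to 428 CPM for 8 pericyte genes and 31.1 to 136.9 CPM for 5 fibroblast genes. Some libraries stood apart. The prefrontal cortex library of animal 8 had the lowest neuron sum of its region (5402 CPM) and the highest pericyte (428.4 CPM) and fibroblast (100.6 CPM) sums. The prefrontal cortex library of animal 20 held 443 CPM of choroid plexus markers against a median of 5.65 CPM, and the hypothalamus library of animal 28 324.6 CPM against 49.0 CPM. The part of these libraries in single levels was not tested beyond leaving them out.

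Slc2a1 was the most abundant of the 10 genes per kilobase of exon in each region, with 32.7 ± 5.13 CPM per kb in prefrontal cortex (SD, n = 29), 34.1 ± 3.70 in hypothalamus (n = 28) and 29.5 ± 3.63 in hippocampus (n = 29). Pecam1 was the lowest, at 4.10 ± 0.68, 3.41 ± 0.46 and 3.37 ± 0.50 CPM per kb. Cldn5, Ly6c1 and Itm2a came after Slc2a1 in each region, between 18.04 and 25.02 CPM per kb, and did not differ from each other by more than the larger SD of the pair. Ly6a, Mfsd2a and Abcb1a followed at 7.13 to 10.2 CPM per kb, again without gaps beyond the larger SD between neighbours. Slco1a4 and Flt1 lay below them, at 4.41 to 6.15 CPM per kb. The order rests on the length used, since with the longest transcript in place of all exons Ly6c1 came to 43.8, 35.9 and 42.9 CPM per kb in the same order of regions, against 35.2, 36.7 and 31.7 CPM per kb for Slc2a1, so that it came above Slc2a1 in prefrontal cortex and hippocampus and below it in hypothalamus.

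The question of the region comparison is whether these genes differ in level between the 3 regions of the same animals. Cldn5, Flt1, Abcb1a, Pecam1 and Slco1a4 were lower in both other regions than in the prefrontal cortex. For Slco1a4 the call in hippocampus (log2 fold change -0.06, edgeR adjusted p = 0.0257) was lost without animals 21 and 22 (-0.05, adjusted p = 0.0748) and without the block of animals. Relative to the prefrontal cortex, 7 of the 10 genes were lower in the hypothalamus and 7 were lower in the hippocampus, by at most 23.5%. Itm2a was higher in both other regions, and Slc2a1 and Mfsd2a were higher in the hypothalamus than in either other region.

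In prefrontal cortex, Cldn5 ranged from 20.9 to 49.95 CPM with a median of 34.8 CPM. In hypothalamus it ranged from 14.5 to 38.5 CPM (median 27.4), and in hippocampus from 16.4 to 40.2 CPM (median 29.2). The ranges overlapped widely between regions. Within animals, Cldn5 was lower in the hypothalamus than in the prefrontal cortex by 23.5% (log2 fold change -0.39 ± 0.030 SE, edgeR quasi-likelihood test with animal as a block, adjusted p = 3.49e-18). In the hippocampus it was lower by 15.2% (-0.24 ± 0.030, adjusted p = 2.17e-10).

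Flt1 ranged from 59.3 to 107.5 CPM in prefrontal cortex with a median of 76.4 CPM, from 46.1 to 85.5 CPM (median 57.5) in hypothalamus and from 45.9 to 73.9 CPM (median 58.6) in hippocampus. Between hypothalamus and hippocampus it did not pass the test (log2 fold change 0.00, 95% interval -0.07 to 0.06, edgeR adjusted p = 0.924). Against the prefrontal cortex it was lower by 22.9% in the hypothalamus and by 22.7% in the hippocampus. The efflux pump gene Abcb1a had medians of 48.8, 39.5 and 41.7 CPM in prefrontal cortex, hypothalamus and hippocampus, and Pecam1 25.1, 20.4 and 20.1 CPM. Abcb1a was lower than in prefrontal cortex by 22% in hypothalamus and 17% in hippocampus, and Pecam1 by 16.2% and 17.3%.

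The lipid transporter gene Mfsd2a had medians of 19.4 CPM in prefrontal cortex, 20.5 CPM in hypothalamus and 17.7 CPM in hippocampus. The glucose transporter gene Slc2a1 had medians of 118.7, 118.7 and 102.3 CPM in the same order. These 2 genes had the same order of regions, with the hypothalamus 15.2% (Slc2a1) and 13.9% (Mfsd2a) above the hippocampus (log2 fold changes 0.20 ± 0.024 SE and 0.19 ± 0.026, edgeR adjusted p = 1.74e-11 and 3.23e-09). The hippocampus was lower than the prefrontal cortex by 9.0% for Slc2a1 and 6.9% for Mfsd2a, and the hypothalamus was higher by 4.8% and 6.0%. The anion transporter gene Slco1a4 followed another order, with medians of 40.3, 32.9 and 37.7 CPM, and was lower in the hypothalamus than in the prefrontal cortex by 18.8% and in the hippocampus by 4.3%.

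Itm2a had medians of 36.7 CPM in prefrontal cortex, 38.9 CPM in hypothalamus and 40.4 CPM in hippocampus. It was higher than in prefrontal cortex by 6.9% in hypothalamus (edgeR adjusted p = 0.00382) and by 11.5% in hippocampus (adjusted p = 6.96e-06). Ly6a and Ly6c1 were lower in hypothalamus than in prefrontal cortex by 12.6% and 16.7%, and lower than in hippocampus by 18.8% and 15.9%. Between hippocampus and prefrontal cortex they did not pass the test (log2 fold changes 0.10 ± 0.053 and -0.01 ± 0.055, edgeR adjusted p = 0.0691 and 0.837).

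Differences past the test were common among all genes in this comparison of 29 animals with themselves. All 10 genes passed the test between hypothalamus and prefrontal cortex, where 81.3% of the 18769 genes tested did (42.2% higher, 39.1% lower). Between hippocampus and prefrontal cortex 8 of 10 passed, against 72.0% of all genes (38.8% higher, 33.3% lower), and between hypothalamus and hippocampus 7 of 10, against 76.4% (36.8% higher, 39.5% lower). In either direction, the shares of members were thus near the background. By direction, 3 members were higher and 7 lower in the first comparison, 1 and 7 in the second, and 2 and 5 in the third. The shares lower than in prefrontal cortex were thus above those of all genes. Their median log2 fold change was -0.26, -0.12 and -0.08 in these comparisons, beside 0.02, 0.02 and -0.01 over all genes. Without the block of animals, 5, 6 and 4 of the 10 genes passed, with the same directions. The plot of levels by region shows how much of the spread lies within regions.

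**Figure D1:**
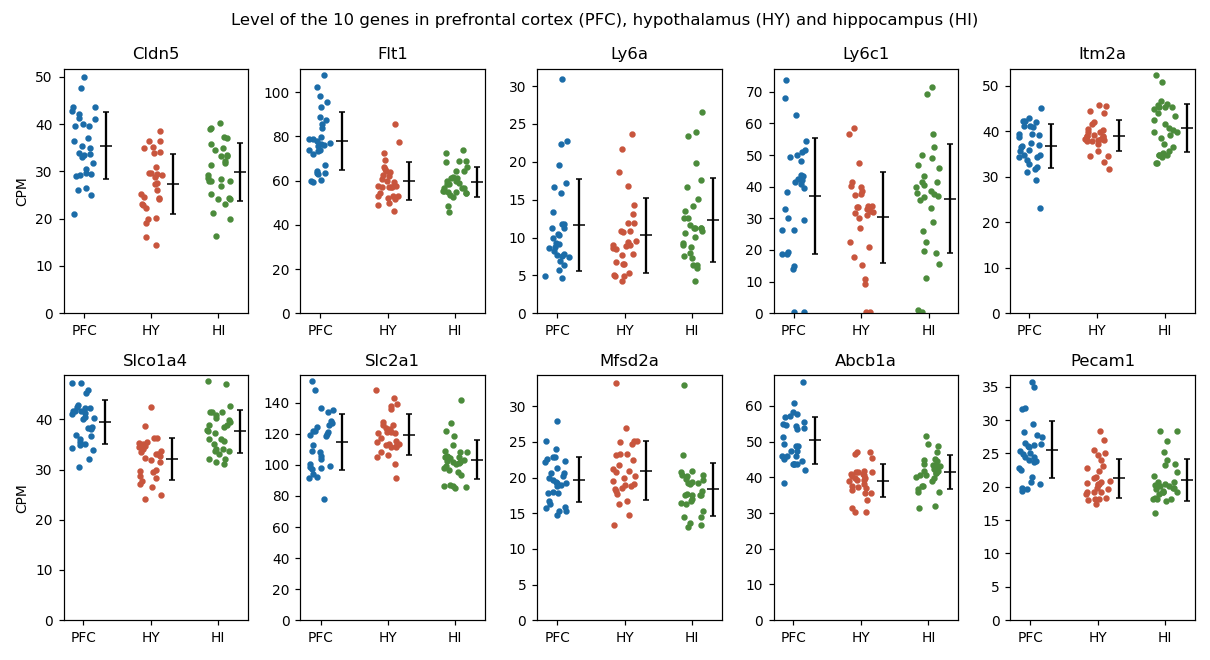
Level in CPM (vertical axes, from 0) of each of the 10 genes in prefrontal cortex (PFC, n = 29), hypothalamus (HY, n = 28) and hippocampus (HI, n = 29). Each point is a library, and bars are mean and SD. Cldn5, Flt1 and Abcb1a sit highest in the prefrontal cortex, and 2 animals lie near 0 in each region for Ly6c1.

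Few reads were counted for Ly6c1 in 2 of the 29 animals, while all others had at least 9.30 CPM in each library. Reads were mapped to the GRCm38 reference, and whether the Ly6c1 sequence of these 2 animals differs from it was not tested. Animal 21, a female with a small network, had 13 reads in prefrontal cortex (0.301 CPM, exact Poisson 95% interval 0.16 to 0.514 CPM). It had 28 reads in hypothalamus (0.544 CPM, 0.362 to 0.787) and 37 in hippocampus (0.897 CPM, 0.631 to 1.24). Animal 22, a male with a large network, had 13 reads (0.295 CPM, 0.157 to 0.504), 14 reads (0.381 CPM, 0.208 to 0.639) and 17 reads (0.318 CPM, 0.185 to 0.509) in the same regions. These intervals cover counting error only.

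The other animals had 14.1 to 73.6 CPM of Ly6c1 in prefrontal cortex (median 41.5, n = 27), 9.30 to 58.5 CPM in hypothalamus (median 33.3, n = 26) and 11.1 to 71.4 CPM in hippocampus (median 38.6, n = 27). The groups did not overlap in any region. The median of the others was 138 times the level of animal 21 and 141 times that of animal 22 in prefrontal cortex, 61.2 and 87.4 times in hypothalamus, and 43.0 and 121 times in hippocampus. Among the 27 other animals the highest level was still 5.22, 6.29 and 6.45 times the lowest in the 3 regions, with animal 12 lowest in each. Ly6c1 was the only one of 18710 genes in which both animals lay below all others in all 3 regions, and no gene had both above all others. This count was made after the values of Ly6c1 were seen.

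Ly6c2, the gene with the nearly identical coding sequence, was low in all animals (0.552 to 4.46 CPM in prefrontal cortex, 0.389 to 5.19 CPM in hypothalamus and 0.393 to 5.97 CPM in hippocampus). Animals 21 and 22 had 27 and 31 reads of it in prefrontal cortex, 20 and 16 in hypothalamus, and 83 and 21 in hippocampus. These were 0.624 and 0.703 CPM in prefrontal cortex (median of the others 1.48 CPM), 0.389 and 0.435 CPM in hypothalamus (1.85 CPM), and 2.01 and 0.393 CPM in hippocampus (2.5 CPM). The Ly6c2 level of both animals was thus below the median of the others in each region. The other endothelial genes were present in both animals, and their Ly6a was above the median of the other animals. Ly6a came to 22.3 CPM in animal 21 and 22.7 CPM in animal 22 in prefrontal cortex (median of the others 9.34 CPM), to 21.7 and 16.9 CPM in hypothalamus (8.97 CPM) and to 23.5 and 19.8 CPM in hippocampus (11.2 CPM).

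Ly6a itself differed several times between animals. Over all animals it ranged from 4.72 to 31.0 CPM in prefrontal cortex (median 9.89), from 4.22 to 23.7 CPM in hypothalamus (median 9.02) and from 4.28 to 26.6 CPM in hippocampus (median 11.3). The highest level was that of animal 28, a male with a large network, in each region (31.0, 23.7 and 26.6 CPM). The lowest was that of animal 19, a female with a large network (4.72, 4.22 and 4.28 CPM). By the methods of the study, the hypothalamus sample of animal 19 had the lowest RNA integrity and was kept. The coefficient of variation across animals was 45.3 to 52.3% for Ly6a and 47.1 to 49.4% for Ly6c1 in the 3 regions. For the other 8 genes it lay between 8.78 and 23.3%, and the median over all genes was 12.8 to 14.5%. Across animals the levels of Ly6a and Ly6c1 had a Pearson r of 0.19 in prefrontal cortex (n = 27), 0.21 in hypothalamus (n = 26) and 0.16 in hippocampus (n = 27) without animals 21 and 22, given as a description. With these 2 animals, which were high in Ly6a and had few reads of Ly6c1, r had the other sign in each region. It was -0.375 in prefrontal cortex, -0.35 in hypothalamus and -0.325 in hippocampus.

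**Figure D2:**
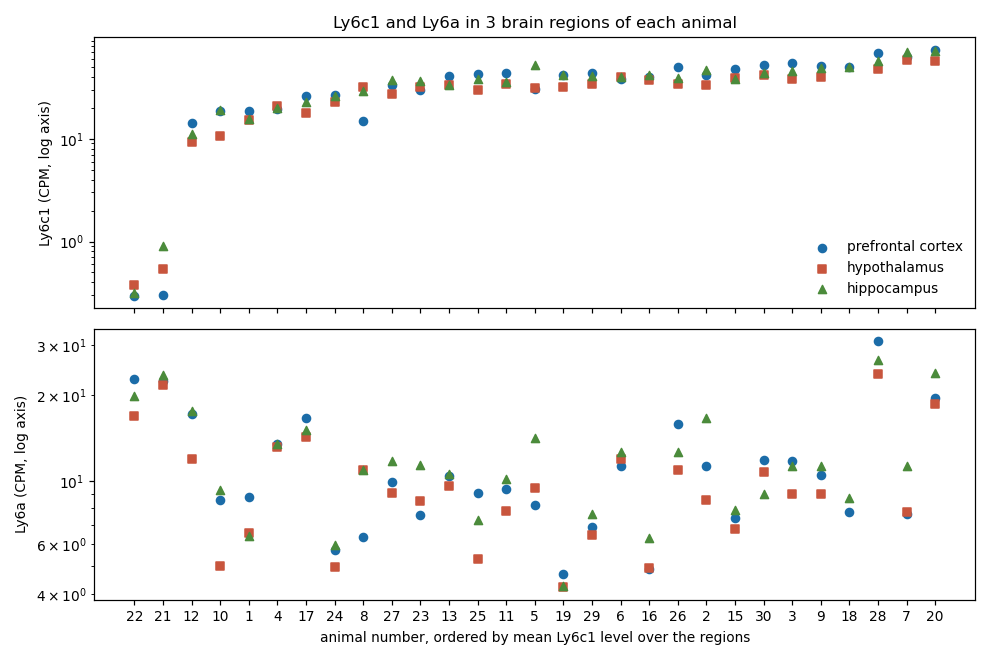
Levels of Ly6c1 (top) and Ly6a (bottom) in CPM on log axes for each animal (horizontal axis, ordered by mean Ly6c1 level), with 1 point per region. Animals 21 and 22 lie below 1 CPM of Ly6c1 in all 3 regions while the others are above 9 CPM, and the 3 points of an animal lie close together for both genes.

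A further question is how far regions of the same animal agree, that is, whether an animal that is high in 1 region is also high in the others. For most of the 10 genes it was. Levels on the log2 scale correlated between regions across animals, with a median Pearson r of 0.779 between prefrontal cortex and hypothalamus (28 animals), 0.747 between prefrontal cortex and hippocampus (29 animals) and 0.833 between hypothalamus and hippocampus (28 animals). Over all 18710 genes the median r was 0.316, 0.302 and 0.336. With p-values adjusted over all genes, 9, 10 and 9 of the 10 genes passed, against 29.2%, 29.6% and 33.0% of all genes. Of these 30 relations the exceptions were those of Itm2a between prefrontal cortex and hypothalamus (r = 0.44, adjusted p = 0.0599) and between hypothalamus and hippocampus (r = 0.43, adjusted p = 0.0594). By Spearman rank correlation 10, 10 and 9 of the 10 genes passed, against 28.6%, 28% and 29.8% of all genes, since the first of these passed (rho = 0.52, adjusted p = 0.021) and the second did not (rho = 0.37, adjusted p = 0.128).

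Cldn5 had an r of 0.886 between prefrontal cortex and hypothalamus (rho = 0.864), of 0.841 between prefrontal cortex and hippocampus (rho = 0.830) and of 0.909 between hypothalamus and hippocampus (rho = 0.888). Each had a permutation p of 1e-05, the smallest that the 100000 permutations can give, and adjusted p-values over all genes of 2.4e-08, 4.56e-07 and 1.9e-09. Without the 2 animals farthest from the median, r was 0.856, 0.768 and 0.854. The same animals were near the ends in each region. Animal 1, a female with a large network, was lowest with 20.9 CPM in prefrontal cortex, 14.5 CPM in hypothalamus and 16.4 CPM in hippocampus. Animal 29, a male with a large network, was low in all (25.1, 16.1 and 19.8 CPM), and animal 7, a male with a small network, was high (49.95, 33.98 and 40.2 CPM).

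Ly6a had r values of 0.890, 0.876 and 0.916 for the same pairs of regions, and Mfsd2a 0.883, 0.840 and 0.895 (permutation p of 1e-05 each, the smallest possible). For Ly6c1, which fell into 2 separate sets of animals, r is given without animals 21 and 22. It was 0.846 (n = 26, rho = 0.863), 0.878 (n = 27, rho = 0.824) and 0.935 (n = 26, rho = 0.817), each with a permutation p of 1e-05. Slc2a1 had r values of 0.834, 0.766 and 0.860, Pecam1 0.725, 0.727 and 0.806, Slco1a4 0.671, 0.698 and 0.642, Flt1 0.680, 0.590 and 0.711, and Abcb1a 0.661, 0.660 and 0.628. These 5 genes agreed less closely, but each passed in all pairs.

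The intraclass correlation over the 3 regions, which is the portion of the variance within regions that lies between animals, was computed for the 28 animals with all regions. It was 0.978 for Ly6c1 (0.885 without animals 21 and 22), 0.892 for Ly6a, 0.874 for Cldn5 and 0.867 for Mfsd2a. Slc2a1 followed with 0.788, Pecam1 with 0.75, Slco1a4 with 0.665, Abcb1a with 0.652, Flt1 with 0.636 and Itm2a with 0.510. The median over all genes was 0.285, with quartiles of 0.147 and 0.438, and 0.93% of genes were above 0.9. Libraries of an animal agreed over all genes too, so that some of this agreement is shared by other genes, as the medians show. Among the values of single libraries, the prefrontal cortex of animal 8 went against its other regions for Ly6c1 (14.96 against 32.2 CPM in hypothalamus and 28.9 CPM in hippocampus) and Itm2a (23.2 against 38.3 and 35.3 CPM). Without animals 8, 20 and 28 the median r over the 10 genes was 0.746 to 0.812 for the 3 pairs of regions.

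**Figure D3:**
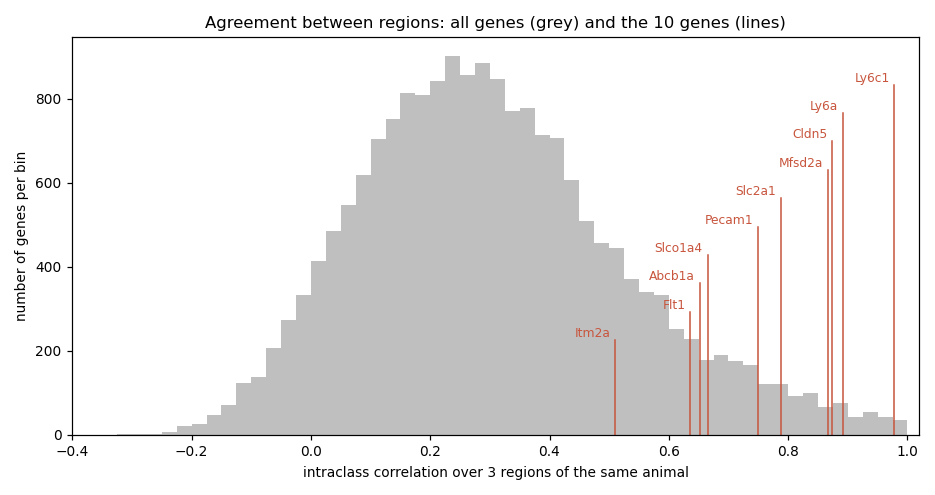
Number of genes (vertical axis) by intraclass correlation over the 3 regions of an animal (horizontal axis), for all 18710 genes in grey, with the 10 genes as labelled lines. The lines lie between 0.510 (Itm2a) and 0.978 (Ly6c1), to the right of the median of all genes, 0.285.

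**Figure D4:**
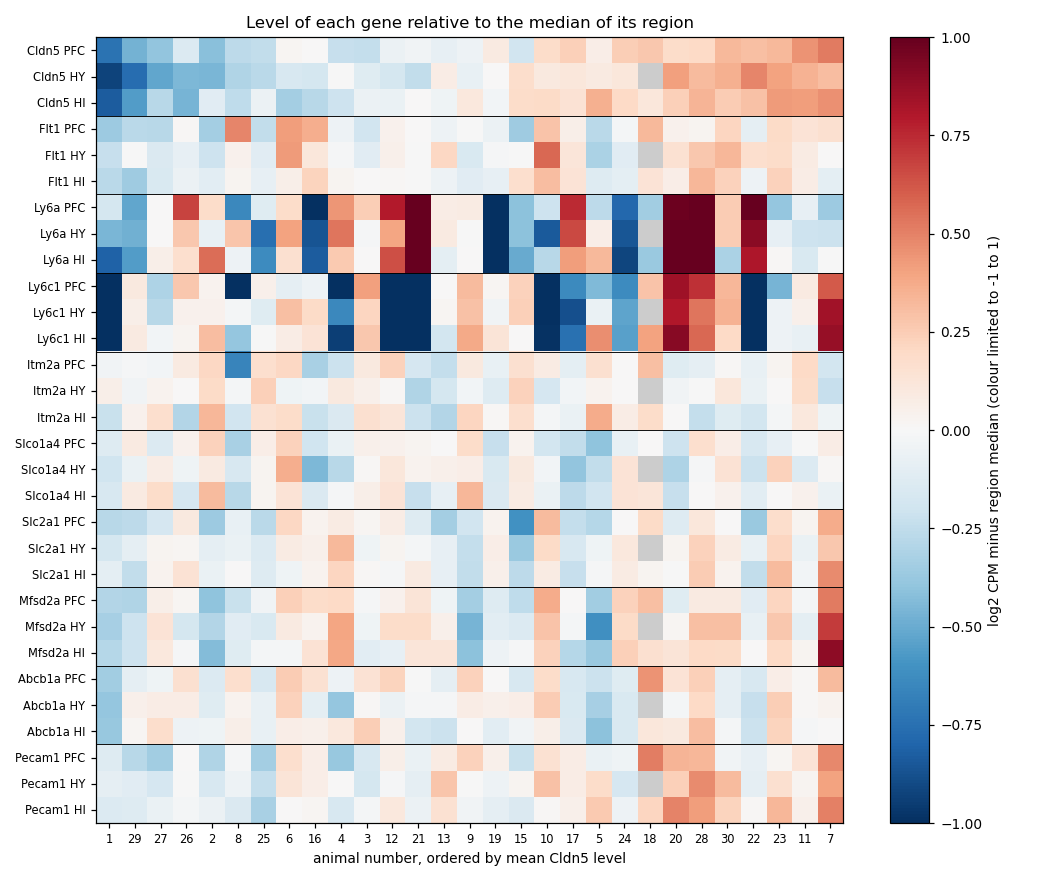
Level of each gene in each region (rows) and animal (columns, ordered by mean Cldn5 level) as log2 CPM minus the median of the region, with the colour limited to -1 to 1. The 3 rows of a gene show like colours in an animal, while different genes order the animals differently.

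Across animals of a region, the 10 genes varied together only in part. The median r among the 45 pairs of genes, across animals within a region, was 0.189 in prefrontal cortex, 0.173 in hypothalamus and 0.216 in hippocampus, given as a description since all pairs share libraries. Without Ly6a and Ly6c1 it was 0.433, 0.253 and 0.282 over 28 pairs. The closest pair in each region was Slc2a1 and Mfsd2a, with r of 0.80, 0.759 and 0.743. Cldn5 and Pecam1 had r of 0.678, 0.581 and 0.609. Itm2a and Mfsd2a had r of -0.05, -0.37 and -0.36, so that the animals high in the one were in part those low in the other in hypothalamus and hippocampus. Levels were also taken relative to the other 9 genes in the same library. The median r between regions was then 0.847 for prefrontal cortex and hypothalamus and 0.865 for prefrontal cortex and hippocampus, against 0.779 and 0.747 before. For hypothalamus and hippocampus it lay between these values, against 0.833 before. This reference includes Ly6c1, which was far lower in the same few animals in every region. That shifts the other genes of these animals alike in all regions and can by itself raise r. How much of the rise is due to it was not tested, so closer agreement is not concluded. Animal 7 was highest in the summed level of the 10 genes in prefrontal cortex (558 CPM) and hippocampus (495.7 CPM), and animal 1 was lowest in all 3 regions (355.4, 325.2 and 315.3 CPM).

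Of all other genes, the 10 most like the mean standardized level of these genes, by mean r over the 3 regions across 28 or 29 animals, began with Gata2 (0.705), a transcription factor of endothelial and blood-forming cells. They went on with Tgm2 (0.691), Nod1 (0.688), Adgrl4 (0.671), Paqr5 (0.671), Fgfr3 (0.661), Acer2 (0.649), Tgfb1 (0.648), Cd14 (0.645) and Tfeb (0.642). Adgrl4 is a receptor abundant in endothelial cells, and Fgfr3 a growth factor receptor that in brain is abundant in astrocytes. In these data the mean level of smooth muscle markers had an r of 0.456, 0.450 and 0.450 with the mean of the 10 genes, pericyte markers 0.291, 0.167 and 0.285, and red blood cell markers 0.264, 0.256 and 0.375 in prefrontal cortex, hypothalamus and hippocampus. The part of these cells in the agreement between regions was not tested.

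Most pan-endothelial genes were likewise lower outside the prefrontal cortex. Of 18 pan-endothelial identity genes, 17 were lower in the hypothalamus than in the prefrontal cortex, none was higher and 1 did not pass, with a median log2 fold change of -0.29, beside 39.1% lower and a median of 0.02 among all genes. The largest differences were those of Cd34, which encodes a sialomucin of endothelial and progenitor cells (-2.67 ± 0.051 SE, edgeR adjusted p = 6.23e-50), and Vwf, which encodes von Willebrand factor (-0.51 ± 0.047, adjusted p = 2.81e-15). In the hippocampus 14 were lower and 1 was higher than in prefrontal cortex, with Cd34 at -1.13 and Robo4, a guidance receptor of endothelium, at -0.50 on the lower side and Ramp2, a subunit of the adrenomedullin receptor, at 0.27 on the higher. Between hypothalamus and hippocampus 5 were higher, 7 lower and 6 did not pass, with a median of -0.05.

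Genes of junctions and of barrier transport were found on both sides. Beside the counts of these and the following lists stand, among all genes, 42.2% higher and 39.1% lower in hypothalamus than in prefrontal cortex, 38.8% and 33.3% in hippocampus than in prefrontal cortex, and 36.8% and 39.5% in hypothalamus than in hippocampus. Of 11 junction genes, 6 were higher and 4 lower in the hypothalamus than in the prefrontal cortex. Cgn, which encodes cingulin, was higher by 1.67 ± 0.047 on the log2 scale, and Cdh5, which encodes the cadherin of endothelial contacts, was lower by 0.357 ± 0.039 (edgeR adjusted p = 6.82e-41 and 1.24e-12). In hippocampus against prefrontal cortex 5 were higher and 3 lower, and in hypothalamus against hippocampus 5 were higher and 5 lower. Of 15 barrier transporter genes, 3 were higher and 10 lower in hypothalamus than in prefrontal cortex. Slc39a8, a metal ion transporter gene, had a log2 fold change of 0.82 there, Slc40a1, the gene of the iron exporter ferroportin, of -0.47, and Tfrc, the gene of the transferrin receptor, of -0.43. In hippocampus against prefrontal cortex 3 were higher and 8 lower, and in hypothalamus against hippocampus 4 and 8. Many of these genes are also expressed by other brain cells.

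Among 16 genes of Wnt and beta-catenin signalling at the barrier, 3 were higher and 8 lower in hypothalamus than in prefrontal cortex (42.2% and 39.1% of all genes), 5 and 6 in hippocampus than in prefrontal cortex, and 3 and 9 in hypothalamus than in hippocampus. The 2 Wnt ligand genes of the list differed in sign between hypothalamus and prefrontal cortex, with Wnt7a at 0.77 ± 0.055 and Wnt7b at -0.78 ± 0.049 (edgeR adjusted p = 2.51e-20 and 1.37e-22). Among 11 genes of vascular endothelial growth factor and angiopoietin signalling, 3 were higher and 4 lower, 4 and 5, and 5 and 4 in the same comparisons. Pgf, the gene of placental growth factor, which binds the product of Flt1, was higher in hypothalamus than in prefrontal cortex by 1.21 ± 0.051 on the log2 scale, and Vegfc was lower by 0.868 ± 0.050. Of 10 genes of permeable or activated endothelium, 8 could be tested, and 3 were higher and 4 lower in hypothalamus than in prefrontal cortex. Esm1 was at 1.75 ± 0.124 and Plvap, the gene of the diaphragm protein of permeable capillaries, at 0.26 ± 0.076 (adjusted p = 3.29e-20 and 0.00178). In hippocampus against prefrontal cortex 3 of these 8 were higher and 2 lower, and in hypothalamus against hippocampus 1 and 3.

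Of 16 Ly6 family genes and paralogs of the 10 genes, 9 could be tested. Between hypothalamus and prefrontal cortex 2 were higher and 2 lower, between hippocampus and prefrontal cortex 4 and 3, and between hypothalamus and hippocampus 2 and 5. Abcb1b, the close paralog of Abcb1a, had means of 1.92, 1.81 and 2.45 CPM in prefrontal cortex, hypothalamus and hippocampus, against 50.3, 39.1 and 41.5 CPM for Abcb1a. Abcb1b was higher in hippocampus than in prefrontal cortex (log2 fold change 0.37 ± 0.055, edgeR adjusted p = 3.09e-08), the other sign from Abcb1a at -0.27. The paralogs Slco1a5 and Slco1a6 of Slco1a4 stayed at or below 1.86 and 0.0970 CPM. Ly6e, a broadly expressed family member, was lower in hypothalamus than in prefrontal cortex by 0.962 ± 0.041 on the log2 scale.

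Other vessel cells had orders of their own. All 5 smooth muscle markers were higher in hypothalamus than in both other regions, with Acta2 at 1.27 and Cnn1 at 1.53 on the log2 scale against prefrontal cortex. Of 8 pericyte markers, 5 were lower and 1 higher in hypothalamus than in prefrontal cortex, and the same numbers held in hippocampus. Rgs5 was lower in both, at -0.50 and -0.40. The higher marker was Notch3 in hypothalamus (0.67) and Vtn in hippocampus (0.12). Of 5 fibroblast markers, 2 were higher in hypothalamus and 3 in hippocampus than in prefrontal cortex, and none lower. The 4 red blood cell markers tested were lower in both other regions than in prefrontal cortex (Hba-a1 at -0.96 in hypothalamus and -0.86 in hippocampus), so that they moved in the direction of most endothelial genes. Markers of other brain cells differed between regions too. All 5 neuron markers were lower in hypothalamus than in prefrontal cortex (median log2 fold change -1.05) and 4 of 5 in hippocampus (-0.52), and of 5 microglia markers 5 and 3 were lower (-0.20 in both). All 5 oligodendrocyte markers were higher in both (0.70 and 0.75), and of 5 astrocyte markers 4 were higher and 1 lower in both (0.35 and 0.41). The part of the blood, vessel or other cell content of the punches in the levels of the 10 genes was not tested.

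The question of the study was whether network size goes with a difference in brain gene expression, within each sex and region. None of the 10 genes passed the test in any of the 6 comparisons, by edgeR or by DESeq2. Over all genes, edgeR called 2 of 17710 in prefrontal cortex of females (0.0113%), 1 of 18129 in hypothalamus of females (0.00552%) and 0% in the other 4 comparisons, so that few genes of any kind passed. The DESeq2 Wald test called 74, 43 and 95 genes in prefrontal cortex, hypothalamus and hippocampus of females. At an unadjusted p under 0.05 there were 2 of 60 values, those of Ly6a in prefrontal cortex of males and Mfsd2a in hippocampus of females, where 2.52% and 12.2% of all genes were. In the 6 comparisons this share of all genes was 2.52 to 12.2%.

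Mfsd2a in the hippocampus of females ranged from 13.7 to 23.2 CPM with a median of 19.1 CPM in animals with small networks, and from 13.1 to 17.6 CPM with a median of 14.5 CPM in animals with large networks. The groups overlapped. The log2 fold change of small against large was 0.27 ± 0.103 (95% interval 0.07 to 0.48, edgeR adjusted p = 0.315). Its log2 fold change was above 0 in all 6 comparisons, between 0.12 and 0.27, but the regions are those of the same animals and none passed.

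Ly6a in the prefrontal cortex of males ranged from 4.88 to 17.1 CPM with a median of 8.17 CPM in the 8 animals with small networks, and from 5.71 to 31.0 CPM with a median of 11.8 CPM in the 7 with large networks. The log2 fold change was -0.71 ± 0.329 (edgeR adjusted p = 1). It was -0.61 in hypothalamus and -0.48 in hippocampus of males, and -0.05, 0.32 and 0.25 in prefrontal cortex, hypothalamus and hippocampus of females. The male groups with large networks hold animals 28, 20 and 22, whose Ly6a was high. Without animals 21 and 22, the value in prefrontal cortex of males was -0.59 ± 0.34 (edgeR adjusted p = 1).

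Whether the effect of network size differs between the sexes was tested for itself, and none of the 10 genes passed in any region by edgeR or DESeq2, as 0% of all genes did by edgeR. Ly6a in hypothalamus had the largest difference (0.94 ± 0.453, edgeR adjusted p = 0.787), and it was the only member under 0.05 without adjustment, beside 6.14% of all genes.

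Ly6c1 had the widest errors. In prefrontal cortex of females, levels were 0.301 to 42.4 CPM (median 29.6) with small networks and 18.8 to 54.5 CPM (median 42.0) with large networks. The log2 fold change was -0.74 with a 95% interval from -1.71 to 0.23. Without animals 21 and 22 it was -0.52 ± 0.257 (edgeR adjusted p = 0.551). For the other 8 genes the 95% intervals of the 6 comparisons lay between -0.482 and 0.485 on the log2 scale.

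**Figure D5:**
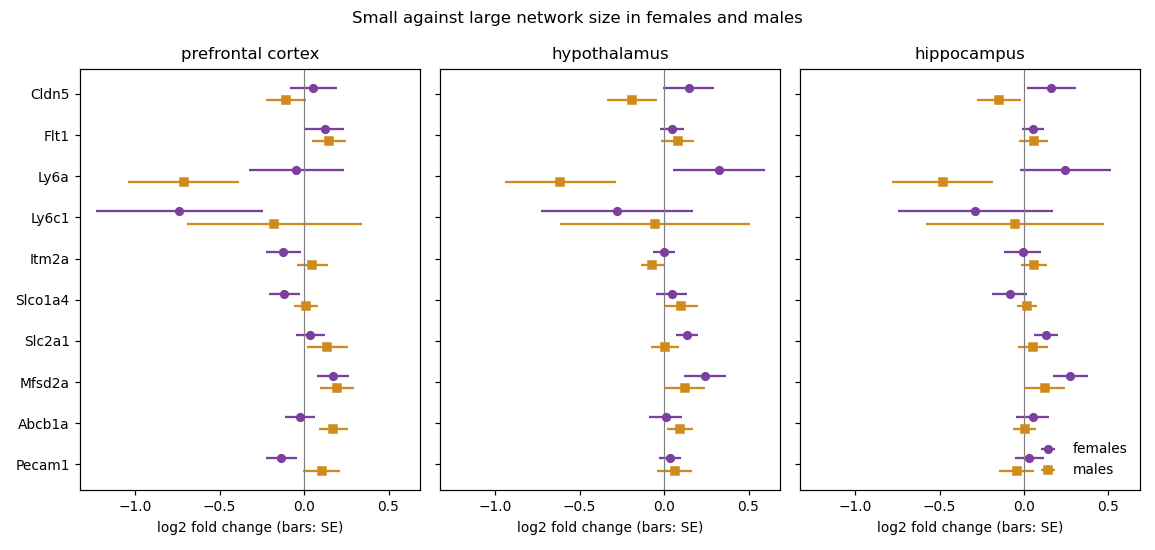
Log2 fold change of animals with small against animals with large network sizes (horizontal axes, bars are SE) for the 10 genes in prefrontal cortex, hypothalamus and hippocampus, in females and males. Bars of most genes reach or lie near 0, Ly6a is below 0 in males in all 3 regions, and Ly6c1 has the longest bars.

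Between the sexes, none of the 10 genes passed the test in any region by edgeR or DESeq2, while over all genes edgeR called 0.0921%, 0.117% and 0.102% in prefrontal cortex, hypothalamus and hippocampus. Their values were lower in females for 10, 9 and 9 of the 10 genes, with Itm2a the exception in hypothalamus and hippocampus, and the median log2 fold change was -0.12, -0.13 and -0.07, beside -0.001, -0.005 and -0.001 over all genes. Markers of other vessel cells had medians below 0 as well, with -0.22, -0.18 and -0.15 for smooth muscle and -0.13, -0.16 and -0.09 for pericytes, and none of them passed the test. At an unadjusted p under 0.05 there were 3, 4 and 2 members, beside 4.96%, 6.73% and 6.02% of all genes. Flt1 in hypothalamus had the smallest p, with 46.1 to 65.2 CPM in 14 females (median 53.7) and 53.2 to 85.5 CPM in 14 males (median 63.1). The groups overlapped, and the log2 fold change was -0.25 ± 0.061 (edgeR adjusted p = 0.205). Cldn5 was at -0.27 ± 0.095 in prefrontal cortex and -0.30 ± 0.115 in hypothalamus, with adjusted p = 0.796 and 0.618. Mfsd2a and Pecam1 were the members under 0.05 without adjustment in all 3 regions, with Mfsd2a at -0.16, -0.21 and -0.23 and Pecam1 at -0.22, -0.19 and -0.16. None of the genes in the other lists passed for network size or sex.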

How the data were processed

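RNA of 86 punches of 3 brain regions was sequenced as paired-end reads. After adapter and quality trimming, the authors mapped reads to GRCm38 (mm10) with STAR and counted reads per gene with HTSeq, and deposited these counts without normalization. The annotation, the strand setting and the handling of reads that fit several places are not given in the sources used here. The submitters' processing notes also name CASAVA 1.8.2 and DESeq2. Sex and network size came from the sample labels, and region and animal number from the library names. Symbols and positions came from GENCODE vM21, in which 34490 of 35275 genes were found.

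Counts were analysed with edgeR 4.0.16 in R 4.3.3 (TMM, filterByExpr with a minimum count of 10, a total of 15 and a proportion of 0.7, quasi-likelihood test, Benjamini-Hochberg adjustment, threshold 0.05). Regions were compared in one fit of all libraries with the animal number as a block, network size within each sex and region, and sex with network size as a covariate. The 95% intervals of log2 fold changes are Wald intervals from the SE. The 95% intervals of counts are exact Poisson intervals. Agreement used log2 CPM with a prior count of 2 and two-sided tests of 100000 permutations, and p-values over all genes came from the t distribution of r. The numbers pair the samples, since they come from the same animals. The correlation of deviations from the region means between libraries of the same number was above 0.1 for all 28, 29 and 28 pairs (lowest 0.266, 0.268 and 0.299), and 27, 29 and 28 libraries correlated best with their own number. The edgeR tests were also run on simulated counts. These had the same dispersion for every gene and no animal effect shared between regions, so they do not check the block of animals. Promoter sequences are those of RefSeq for GRCm38.p6.

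The 10 genes and the other gene lists were chosen with earlier results of these data known. All 10 genes were named in every comparison, and of each other list up to 4 genes past the test with the largest changes, paralogs that could share reads, and the 10 genes most like the members. Alternatives were DESeq2 1.42.0, its size factors, all genes with at least 1 count, fits without the block or with 4 groups, other prior counts, residuals, single sexes and libraries left out. Nothing in the labels says whether libraries were made in batches.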

Additional observations from a re-analysis of the deposited data

Results flagged for a closer look

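In 13 of 120 sets, each of 1 gene in 1 group and region, the highest or lowest animal was set apart from the other animals by a Dixon test on log2 levels. Chance gives about 1 in 20 such sets. The sets are not independent, because the same animals gave all 3 regions and the genes share libraries. Of the 13 sets, 6 are the Ly6c1 levels of animals 21 and 22. Animal 21 had 0.301 CPM in prefrontal cortex, 0.544 CPM in hypothalamus and 0.897 CPM in hippocampus, where the next lowest females with small networks had 14.96, 20.8 and 19.8 CPM. Animal 22 had 0.295, 0.381 and 0.318 CPM, where the next lowest males with large networks had 26.4, 22.6 and 26.04 CPM. Cldn5 of animal 29 was the lowest among males with large networks in all 3 regions, with 25.1 CPM in prefrontal cortex (next 39.7 CPM), 16.1 CPM in hypothalamus (next 29.7 CPM) and 19.8 CPM in hippocampus (next 33.5 CPM). In the hippocampus of males with small networks, animal 7 was the highest for Mfsd2a (32.9 CPM, next 20.8 CPM) and for Slc2a1 (141.8 CPM, next 108.3 CPM), and animal 13 was the lowest for Abcb1a (36.0 CPM, next 40.6 CPM). In prefrontal cortex of males with large networks, animal 11 was the highest for Itm2a (42.0 CPM, next 36.9 CPM).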

How the results depend on the processing

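Leaving out the prefrontal cortex library of animal 8, those of animals 20 (prefrontal cortex) and 28 (hypothalamus), or animals 21 and 22 was chosen after seeing the data. The number of the 10 genes past the test moved by over 1.5 times only without the replicate block, to 5 for hypothalamus against prefrontal cortex and 4 for hypothalamus against hippocampus, where the calls of Ly6a, Ly6c1, Itm2a, Slc2a1 and Mfsd2a, and of Cldn5, Ly6a and Ly6c1, were lost. In hippocampus against prefrontal cortex those of Slco1a4 and Mfsd2a were lost. No paired analysis was possible for network size within a region because each animal has one network size. Without animals 21 and 22, Ly6a passed in hippocampus against prefrontal cortex (0.12, adjusted p = 0.049) and Slco1a4 did not (-0.05, adjusted p = 0.0748), and without the libraries of animals 20 and 28 Itm2a passed in hypothalamus against hippocampus (-0.07). Of 900 log2 fold changes of members, 864 kept direction and call and 23 turned sign, none of them a call. The smallest adjusted p of a member over the alternatives was 0.226 for network size and 0.0814 for sex.

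Sign changes were the following log2 values. Flt1 in hypothalamus against hippocampus was 0.007 with DESeq2 size factors and the Wald test, 0.010 with all genes of at least 1 count and 0.014 without animal 8, and for network size by sex in hippocampus -0.009, -0.008 and -0.007 in the first 3. Itm2a in hypothalamus of females was 0.001 with 4 groups. Ly6a between sexes in hypothalamus was 0.032 without animal 19. Without animal 8, Ly6a in prefrontal cortex of females was 0.053, Mfsd2a by sex 0.012 and Itm2a between sexes 0.006. Without the libraries of animals 20 and 28, Ly6a between sexes in hypothalamus was 0.080, Slco1a4 in prefrontal cortex of males -0.015 and Ly6c1 in hypothalamus of males 0.050. Without animals 21 and 22, Slco1a4 in prefrontal cortex of males was -0.011, Slc2a1 in hypothalamus of males -0.011, Abcb1a in hippocampus of males -0.030, Itm2a in females 0.044 in hypothalamus and 0.024 in hippocampus, and by sex Ly6c1 was 0.219 and Pecam1 0.016 in hypothalamus and Ly6c1 0.209 in hippocampus.

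Over all genes, the count for network size in females was 6 (all genes of at least 1 count), 74 (DESeq2 Wald test), 4 (4 groups) and 5 (without animals 21 and 22) in prefrontal cortex, 3, 43, 0 and 0 in hypothalamus with 0 also without animal 19, and 1 and 95 in hippocampus for the first 2. With the DESeq2 Wald test it was 2 in prefrontal cortex and 1 in hypothalamus of males, 30 and 1 by sex in prefrontal cortex and hippocampus, and 29 and 38 between sexes in prefrontal cortex and hypothalamus. In prefrontal cortex it was 1 in males with 4 groups, and 1 by sex without animals 21 and 22. The cause was not tested. The median r between regions was 0.847 and 0.865 relative to the other 9 members. The low Ly6c1 of animals 21 and 22 enters that reference in every region and can by itself raise these r values. Over all alternatives the median r lay between 0.754 and 0.847, 0.736 and 0.865, and 0.812 and 0.883. Of 260 single r values, adjusted over all genes, 14 lost their call, all in females or males alone, and 5 of Itm2a gained one. Of these 5, 2 were relative to the other 9 members. Counting error limits only the Ly6c1 levels of animals 21 and 22.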
